A study of Homo sapiens with 26 samples.

Results

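The genes described here belong to 3 families of splicing factors, HNRNP, SRSF and SNRP. Members were the probe sets whose gene symbol starts with HNRNP, with SRSF and a number, or with SNRP, without symbols that hold a hyphen, which left out 1. This gave 45 of the 17709 probe sets with 1 gene symbol, 22 HNRNP, 11 SRSF and 12 SNRP, each for a different gene. The rule reads gene symbols and no measured value, and the families themselves were picked with earlier results of these data known. HNRNPCL1, HNRNPCL2 and HNRNPCL4 are near copies of HNRNPC, HNRNPA1L2 is a near copy of HNRNPA1 and SNRPD2P2 is a pseudogene of SNRPD2, so their probe sets may share signal with the parent genes and their values are uncertain.

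RNA was measured on 26 single-colour arrays of 3 human lung cancer cell lines, NCI-H1975 (H1975), labelled as an adenocarcinoma, and A549 and NCI-H1299 (H1299), labelled as carcinomas. All cells grew in RPMI medium with serum and received either PBS, the vehicle, or Omomyc at 12.8 µM after a night in culture. The labels used here do not state how long cells were exposed. PBS arrays numbered 4 in H1975, 4 in A549 and 5 in H1299, and Omomyc arrays numbered 5, 3 and 5. Omomyc is a miniprotein made from the dimerization domain of MYC, a transcription factor that many tumours depend on, and it rivals MYC for binding to MAX, the partner protein, and to DNA. PBS was the only control, so what Omomyc does and what any protein added to the medium would do cannot be told apart, and each line stands for 1 culture-adapted tumour.

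Pre-mRNA splicing removes introns and joins exons on a machine built from small nuclear ribonucleoproteins. The SNRP genes encode proteins of those particles: a shared ring of Sm proteins, and proteins found in only the U1 or the U2 particle, which recognise the start of an intron and its branch point. SRSF genes encode the SR proteins, which bind exons through RNA recognition motifs and recruit the spliceosome through a domain rich in arginine and serine. HNRNP genes encode the heterogeneous nuclear ribonucleoproteins, a diverse group of abundant RNA-binding proteins that coat nascent transcripts and often repress the use of an exon. Several of these genes, among them SRSF1, HNRNPA1 and HNRNPA2B1, are known as targets of MYC in other tumours.

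MYC with MAX, and Omomyc itself, are known to bind the E-box CACGTG, a palindrome that reads the same on both strands. RefSeq promoters on GRCh38.p14 were at hand for 42 of the 45 members, with 60 transcript starts. HNRNPA1, SNRPD1 and SNRPD2P2 had none at hand and were not searched. Within the 250 bases before a start, CACGTG was found in 5 members, or 11.9%, against 7.73% of 27305 genes with a promoter and 9.68% of the 14250 of them that the arrays measured. One window per member follows (HNRNPDL has another match, 156 bases before another of its starts), 5′ to 3′ along the gene's strand, with CACGTG in capitals. They show which members hold the letters of this E-box and how close to a start, and a match is a description, not a bound site.

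HNRNPM (chr19:8444906-8444965, plus strand, 42 bases before the start): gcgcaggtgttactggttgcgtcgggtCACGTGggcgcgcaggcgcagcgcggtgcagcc
HNRNPD (chr4:82373992-82374051, minus strand, 27 bases before the start): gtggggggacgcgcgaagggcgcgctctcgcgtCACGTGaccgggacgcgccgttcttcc
HNRNPH3 (chr10:68331616-68331675, plus strand, 50 bases before the start): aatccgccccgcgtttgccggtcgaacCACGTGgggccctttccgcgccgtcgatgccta
HNRNPH2 (chrX:101408162-101408221, plus strand, the nearer of its matches 9 bases before the start): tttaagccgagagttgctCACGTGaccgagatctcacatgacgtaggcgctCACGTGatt
HNRNPDL (chr4:82430557-82430616, minus strand, 127 bases before 1 of its starts): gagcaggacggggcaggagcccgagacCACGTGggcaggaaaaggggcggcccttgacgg

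All 5 belonged to the HNRNP family. Of the 18 members called with Omomyc in at least 1 line, that is with an adjusted p under 0.05 in the test described further on, 1 held the motif, HNRNPM. Among the 27 members called in no line, 24 had a promoter and 4 of those held it, HNRNPD, HNRNPDL, HNRNPH2 and HNRNPH3. This division depends on the fit: HNRNPD (adjusted p = 0.0445) and HNRNPH3 (0.0486) passed in H1299 with the replicate number as a block, and these and HNRNPH2 (0.0275) with the normalization run as a block, both explained further on. No match says only that these letters are not in this window.

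The arrays carry deposited log2 values between 1.35 and 19.91, a wider span than is usual for the RMA method named in the submitters' notes, and whether a further scaling was applied is not stated. Background probe sets had means of up to 6.69. The arrays were clustered by the shape of their value distributions and cut into 3 sets, a number set beforehand, with 9, 10 and 7 arrays. Array means ran from 7.08 to 7.12, from 7.3 to 7.36 and from 6.94 to 6.99 in these sets. The sets are referred to as normalization runs, a name for a pattern in the values that no label gives. Runs 1 and 2 held arrays of all 6 groups, and run 3 lacked only A549 with Omomyc. Of 5 epithelial markers, 4 exceeded background in H1975, 5 in A549 and 2 in H1299, which had KRT8 and KRT18 but not EPCAM, KRT19 or CDH1. CDH1 was also below background in H1975. Of 4 lung lineage markers, H1975 had NKX2-1 alone above background and the other lines none. Of 7 markers of other cell types (blood, endothelial and fibroblast), PTPRC, PECAM1, CD3E and LYZ were below background in every group. CD14, COL1A1 and COL1A2 exceeded it in H1975, CD14 alone in A549 (9.45 with PBS and 9.19 with Omomyc), and none in H1299. The summed level of the 7 markers was 10.69 to 12.41 on the H1975 PBS arrays and 9.31 to 10.38 on the Omomyc arrays. It was 9.18 to 10.16 and 9.18 to 9.92 in A549, and 6.57 to 8.67 and 6.62 to 8.29 in H1299. Its part in the H1975 results given here was not tested. In such bulk RNA, fewer cells of a kind and less RNA per cell cannot be told apart.

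Without Omomyc, nearly all members were expressed in all 3 lines. The mean PBS level exceeded the highest background in 39 of 45 members in H1975, 41 in A549 and 40 in H1299. Of all 17709 probe sets 8708, 8582 and 8548 did so. The shares of all probe sets given further on thus include many dim ones. The members at background in all 3 lines were HNRNPCL1, HNRNPCL2, HNRNPCL4 and SNRPD2P2, and HNRNPA1L2 and SRSF12 passed that level in some lines only. The median PBS level over the members of a family was 13.37, 13.73 and 14.02 for HNRNP in H1975, A549 and H1299, 12.02, 11.82 and 12.15 for SRSF, and 10.75, 11.62 and 11.52 for SNRP. These medians describe the probe sets of a family. Because probe sets differ in brightness for equal RNA, they do not rank the families by transcript number, and only the same probe set was compared between lines.

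Levels were compared with a moderated F test in limma, with Benjamini-Hochberg adjustment over all 17709 probe sets and a threshold of 0.05, as in every test that follows. A difference that passes is called here. The PBS level differed between lines in 24 of 45 members, 11 HNRNP, 6 SRSF and 7 SNRP, against 56.1% of all probe sets. A share near that background is not a result about the families. Pairwise, 5 SNRP members were lower in H1975 than in A549, where 18% of all probe sets were lower and 20.3% higher, and none was higher. Against H1299, 5 SNRP members were lower in H1975 and 1 was higher, with 20.8% and 21.2% of all probe sets. One of these 5 is SNRPD2P2, which lay below background in every line. Between A549 and H1299, 2 SNRP members were higher and 2 lower. For HNRNP, 3 members were higher and 4 lower in H1975 than in A549, 7 were lower and 3 higher in H1975 than in H1299, and in A549 6 were lower than in H1299 and none higher, where 22.4% of all probe sets were lower and 19% higher. For SRSF the calls ran both ways: 2 higher and 2 lower for H1975 against A549, 2 and 1 for H1975 against H1299, and 3 and 1 for A549 against H1299.

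**Figure D1:**
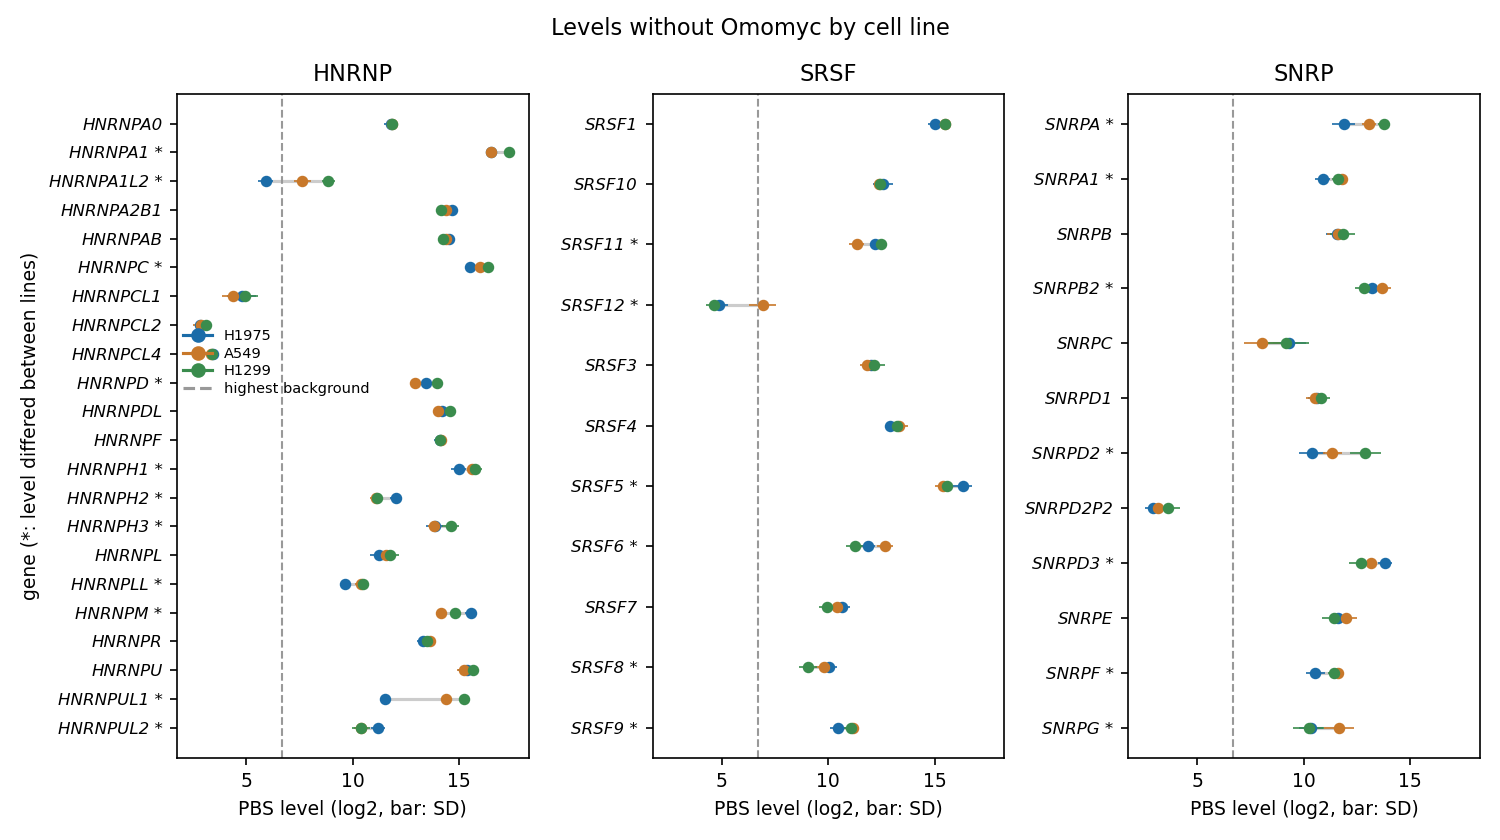
Mean log2 level of each member on the PBS arrays (horizontal axis, bar: SD; n = 4 in H1975, 4 in A549 and 5 in H1299), by family. The dashed line is the highest background probe set at 6.69 and an asterisk marks the 24 members whose level differed between lines, of which HNRNPUL1 shows the widest gap.

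HNRNPUL1, a relative of the nuclear scaffold protein HNRNPU, had the smallest p of all members. It was at 11.56, 11.73, 11.72 and 11.14 on the H1975 PBS arrays, at 14.13, 14.43, 14.32 and 14.63 in A549, and at 15.22, 15.53, 15.12, 15.26 and 15.07 in H1299. The 3 lines did not overlap, and H1975 was the low line by 2.84 ± 0.20 (SE) against A549 and 3.70 ± 0.19 against H1299, with an adjusted p of the F test of 7.17e-16. HNRNPA1L2 followed the same order, at 5.94 ± 0.35 (SD, n = 4), 7.64 ± 0.39 (n = 4) and 8.86 ± 0.30 (n = 5) in H1975, A549 and H1299. Its H1975 level lay below the highest background, and its probe set may share signal with HNRNPA1. HNRNPA1, a repressor of exon inclusion and one of the most abundant nuclear proteins, was at 16.48 ± 0.13 in H1975, 16.47 ± 0.16 in A549 and 17.35 ± 0.16 in H1299. H1299 exceeded both other lines (0.87 ± 0.17 above A549, adjusted p = 8.72e-05), while H1975 and A549 did not differ beyond their spread (difference 0.0095 ± 0.18).

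SRSF12, an SR protein gene of restricted expression, was at 6.93 ± 0.61 in A549 but at 4.89 ± 0.41 in H1975 and 4.63 ± 0.34 in H1299, both under the highest background. A549 was the only line with a mean above it, and 1 of its 4 PBS arrays, at 6.06, lay below. SRSF11 was lowest in A549, at 11.34 ± 0.35 against 12.21 ± 0.10 in H1975 and 12.46 ± 0.28 in H1299 (adjusted p of the F test 2.74e-04). H1975 and H1299 did not differ beyond their spread in this gene (difference -0.26 ± 0.23, adjusted p = 0.414).

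Among SNRP members, SNRPA, an RNA-binding protein of the U1 particle, was lowest in H1975 (11.87 ± 0.56), higher in A549 (13.06 ± 0.31) and highest in H1299 (13.78 ± 0.27), and all 3 pairs of lines differed. SNRPD2, a protein of the Sm ring, took the same order at 10.40 ± 0.61, 11.35 ± 0.43 and 12.90 ± 0.73, again with all 3 pairs called. SNRPD3, a partner in that ring, took the opposite order, at 13.81 ± 0.32, 13.15 ± 0.26 and 12.70 ± 0.55, and only H1975 against H1299 was called (1.11 ± 0.27, adjusted p = 0.0011). HNRNPM was highest in H1975 (15.54 ± 0.26), then H1299 (14.81 ± 0.09) and A549 (14.16 ± 0.17), with all 3 pairs called.

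With Omomyc, members of the SRSF and HNRNP families fell in H1975 and in H1299, while no member was called in A549. In H1975 14 of 45 members were called, 4 higher and 10 lower, against 11.8% of all probe sets (5.56% higher and 6.27% lower), and 9 without PBS array 4. In H1299 11 were called, 1 higher and 10 lower, against 8.87% (4.35% and 4.52%). With the run as a block 19 members passed in H1975 (5 higher, 14 lower; 19.2% of all probe sets) and 17 in H1299 (1 and 16; 15.9%). In A549 the test called 1.19% of all probe sets and 0 members, 3 members had an unadjusted p under 0.05, and 0 passed with a block for the run (2.84% of all probe sets) or for the replicate number (1.28%). A549 also had the fewest Omomyc arrays, 3.

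By family, SRSF had 1 member higher and 5 lower in H1975 and 1 and 4 in H1299, of 11. HNRNP had 1 and 5 in H1975 and 0 and 6 in H1299, of 22. SNRP had 2 higher and 0 lower in H1975 and 0 called in H1299, of 12, with 2 members at an unadjusted p under 0.05 in each of these lines. The median difference over all members of a family, Omomyc minus PBS in log2 units, was -0.62 for SRSF, -0.40 for HNRNP and -0.10 for SNRP in H1975. It was -0.055, -0.079 and -0.10 in A549 and -0.55, -0.20 and -0.36 in H1299. Over all probe sets it was 0.0037, 0.042 and 0.0018 in the 3 lines. Leaving out 1 array moved the HNRNP median to -0.212 in H1975 (without Omomyc array 5) and to -0.32 or -0.319 in H1299 (without PBS array 4 or Omomyc array 2). The SNRP median in H1299 went to -0.18, -0.201 or -0.237 (without PBS array 3, Omomyc array 5 or Omomyc array 4). The SNRP median in H1975 ranged from -0.273 (without Omomyc array 4) to 0.0992 (without Omomyc array 5), and was above 0 also without PBS array 2 or Omomyc array 1 or 2. In A549 leaving out PBS array 3 gave SRSF and SNRP medians above 0, 0.0595 and 0.0355. The same contrast within runs 1, 2 and 3 gave medians of -0.49, -0.50 and -0.96 for SRSF in H1975 and -0.14, -0.56 and -0.89 in H1299, all negative. The SNRP median in H1975 was -0.32, 0.38 and 0.18 within the runs. Several values within runs set single arrays against each other: run 1 of H1975 holds 1 PBS array, and run 3 of H1975, run 1 of H1299 and run 2 of A549 hold 1 PBS and 1 Omomyc array.

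Array by array, the family medians of PBS and Omomyc lay apart for SRSF in H1975 only and for HNRNP in H1299 only. The SRSF median lay at 11.62 to 12.30 on the H1975 PBS arrays and at 10.54 to 11.61 on the Omomyc arrays, so the groups did not overlap, though the highest Omomyc array and the lowest PBS array were close. In H1299 it lay at 11.71 to 12.57 and 10.97 to 11.84, with overlap. The HNRNP median was 13.75 to 14.18 and 12.47 to 13.22 in H1299, apart, and 13.13 to 13.58 and 12.40 to 13.57 in H1975, with overlap. The SNRP median overlapped between PBS and Omomyc in every line.

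**Figure D2:**
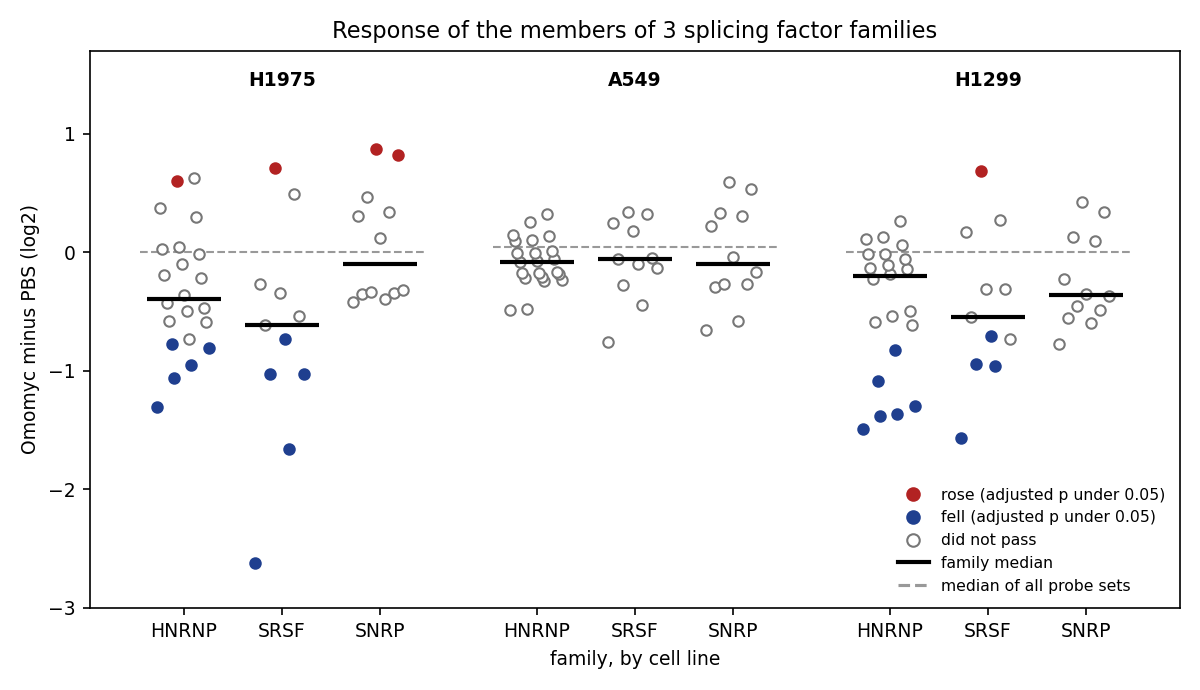
Difference Omomyc minus PBS (vertical axis, log2) of each of the 45 members by family and cell line. Filled points passed an adjusted p of 0.05 (14 in H1975, 0 in A549, 11 in H1299), black bars are family medians and dashed lines the median of all probe sets. SRSF6 in H1975 is the lowest point and the 2 called SNRP members of H1975 lie above 0.

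SRSF6 (SRp55), an SR protein that binds exonic enhancers, had the largest fall of all members in H1975 and in H1299. It was at 11.54, 12.37, 11.80 and 11.75 on the PBS arrays of H1975 and at 8.90, 8.91, 10.16, 9.90 and 8.33 on the Omomyc arrays. In H1299 it was at 11.59, 11.21, 11.74, 10.82 and 10.86 with PBS and at 9.90, 9.97, 10.31, 8.86 and 9.37 with Omomyc. In both lines every Omomyc array was below every PBS array, and the Omomyc arrays spread more widely. In A549 the values were 12.52, 12.48, 13.24 and 12.46 with PBS and 13.21, 12.79 and 13.04 with Omomyc, and 1 PBS array lay above all Omomyc arrays while the other 3 lay below them. The difference was -2.62 ± 0.32 in H1975 (adjusted p = 1.41e-06), a level 6.17-fold lower, -1.56 ± 0.30 in H1299 (adjusted p = 9.08e-04, 2.95-fold lower) and 0.34 ± 0.37 in A549 (adjusted p = 0.93). Within the runs it was -2.63, -2.05 and -3.42 in H1975 and -1.69, -1.34 and -1.72 in H1299, but 0.50 and -0.20 in runs 1 and 2 of A549.

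SRSF1 (SF2/ASF), which bridges exons to the U1 particle and is a known oncogene when overproduced, fell most in H1975. Its PBS arrays there stood at 14.64, 14.92, 15.06 and 15.50 and its Omomyc arrays at 13.32, 13.39, 13.65, 13.29 and 13.18, with no overlap. In H1299 the PBS arrays were close together, at 15.49, 15.32, 15.63, 15.50 and 15.46, and the Omomyc arrays ran from 15.41 down through 14.97, 14.84 and 14.57 to 14.09, with 1 inside the PBS range. In A549 it stood at 15.17, 15.49, 15.53 and 15.79 with PBS and at 15.47, 15.18 and 15.45 with Omomyc, all within the PBS range. The differences were -1.66 ± 0.22 in H1975 (adjusted p = 3.39e-06), -0.70 ± 0.20 in H1299 (adjusted p = 0.0258) and -0.13 ± 0.25 in A549. The H1299 call was lost without PBS array 3, Omomyc array 4 or Omomyc array 5 (adjusted p up to 0.107) and with each array centred on its median. Within the runs of H1299 the difference was -0.085, -0.57 and -1.15.

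SRSF4 (SRp75) went against its family. It was at 12.61, 12.94, 13.18 and 12.84 on the PBS arrays of H1975 and at 13.37, 13.61, 13.55, 13.81 and 13.68 on the Omomyc arrays, all higher. In H1299 it was at 12.96, 13.43, 13.18, 13.62 and 12.88 and then at 13.56, 14.13, 13.78, 14.15 and 13.89, where 1 PBS array exceeded 1 Omomyc array. In A549 the order was turned, with 13.23, 12.77, 13.43 and 13.82 on PBS arrays and 12.44, 12.49 and 12.73 on Omomyc arrays, all lower. SRSF4 rose by 0.71 ± 0.21 in H1975 (adjusted p = 0.0212) and by 0.69 ± 0.19 in H1299 (adjusted p = 0.0226), and the A549 difference of -0.76 ± 0.24 did not pass (adjusted p = 0.146, 0.0527 with the run as a block and 0.262 with the replicate block). The H1975 call was lost without PBS array 1, PBS array 4 or Omomyc array 4 (adjusted p up to 0.0813). The H1299 call was lost without PBS array 1 or 5 or Omomyc array 2 or 4 (up to 0.075) and with each array centred on its median.

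SRSF7 (9G8), which also carries a zinc knuckle and takes part in mRNA export, fell in both lines. Its PBS arrays in H1975 were at 10.13, 10.88, 11.03 and 10.45 and its Omomyc arrays at 9.92, 9.57, 10.07, 10.01 and 8.43, just apart. In H1299 they were at 10.11, 10.28, 10.39, 9.43 and 9.64 and at 9.19, 9.71, 9.37, 8.21 and 8.55, with overlap, and in A549 at 10.56, 10.10, 10.76 and 10.24 against 10.45, 10.24 and 10.38. The differences were -1.02 ± 0.31 in H1975 (adjusted p = 0.029) and -0.96 ± 0.29 in H1299 (adjusted p = 0.0362), and -0.055 ± 0.35 in A549. The call was lost without any 1 of 4 H1975 arrays (PBS 2, PBS 3, Omomyc 2, Omomyc 5; adjusted p up to 0.103) or any 1 of 6 H1299 arrays (PBS 1, 2, 3, Omomyc 1, 4, 5; up to 0.132).

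SRSF5 (SRp40) fell in H1975, with PBS arrays at 15.86, 16.02, 16.63 and 16.77 and Omomyc arrays at 15.58, 15.29, 15.75, 15.50 and 15.82. Its difference there was -0.73 ± 0.21 (adjusted p = 0.0165), lost without PBS array 3 or 4 or Omomyc array 2 (up to 0.0891) and with each array centred on its median. In A549 its Omomyc arrays, at 15.67, 15.67 and 15.74, were level with or above PBS arrays at 15.28, 14.89, 15.67 and 15.64, for a difference of 0.32 ± 0.23 that did not pass (adjusted p = 0.83). In H1299 it was at 15.56, 15.60, 15.51, 15.34 and 15.77 and at 15.87, 15.92, 15.87, 15.43 and 15.54, a difference of 0.17 ± 0.19. SRSF3 (SRp20), the smallest SR protein, fell in H1975 by 1.03 ± 0.27 on the log2 scale (adjusted p = 0.0113) with no overlap of the groups, and in H1299 its difference of -0.73 ± 0.26 did not pass (adjusted p = 0.0778, and 0.0201 with the replicate block). SRSF10, which represses splicing when it loses its phosphates, fell in H1299 by 0.95 ± 0.24 (adjusted p = 0.0105) with no overlap, and stood at -0.53 ± 0.26 in H1975 (adjusted p = 0.214). The 4 SRSF members called in no line, SRSF8, SRSF9, SRSF11 and SRSF12, had differences of -0.62 to 0.49 in H1975, -0.44 to 0.24 in A549 and -0.55 to 0.27 in H1299.

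**Figure D3:**
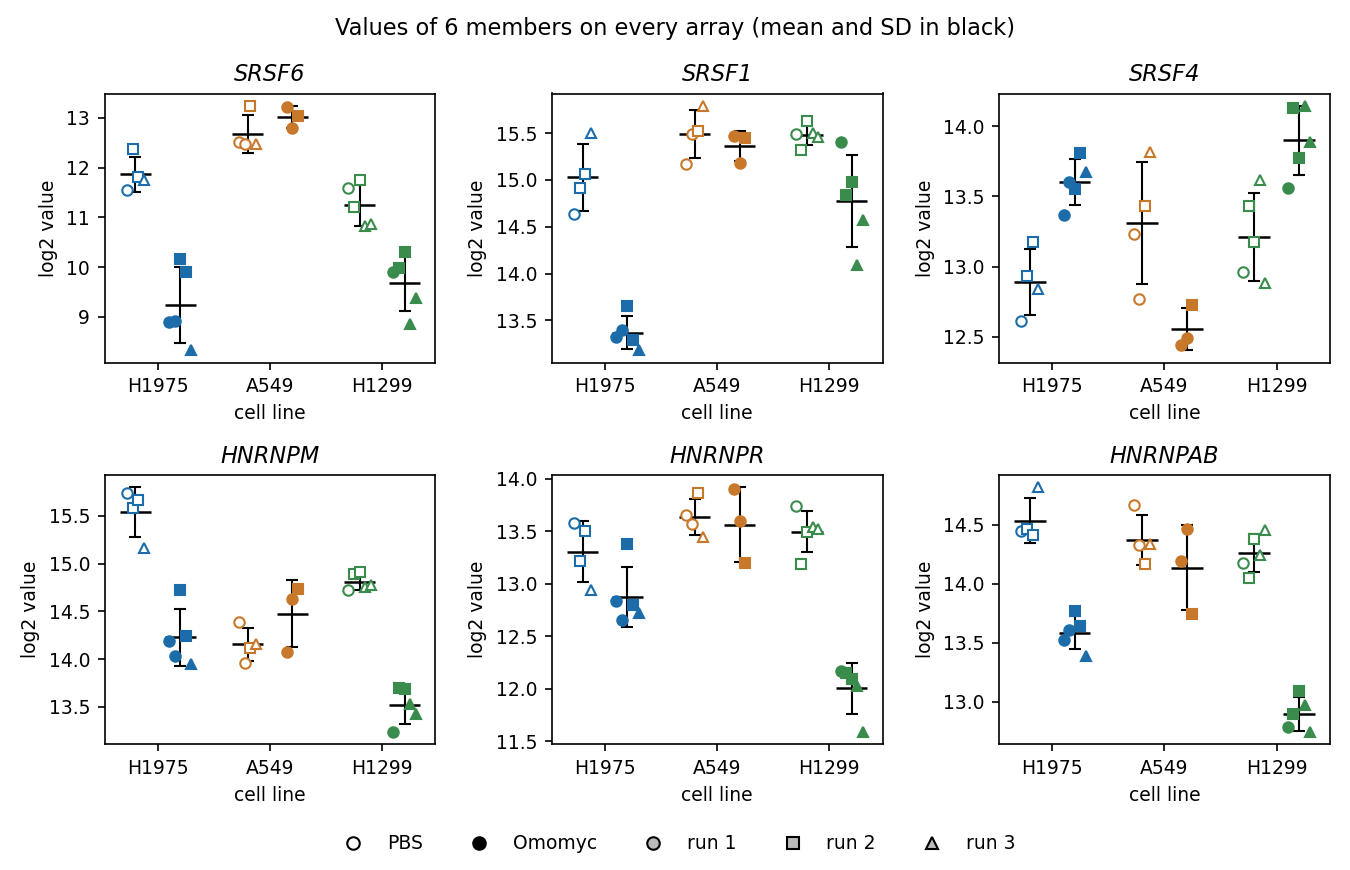
Deposited log2 value of SRSF6, SRSF1, SRSF4, HNRNPM, HNRNPR and HNRNPAB (vertical axes, each panel with its own range) on every array by cell line, PBS open and Omomyc filled, with symbol shapes for the 3 normalization runs and black bars for mean and SD. SRSF6, HNRNPM and HNRNPAB are lower with Omomyc in H1975 and H1299 without overlap, and SRSF4 is higher in those lines but lower in A549.

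In the HNRNP family, HNRNPM and HNRNPAB fell in H1975 and H1299 with no overlap of groups. HNRNPM, a regulator of exon choice known from the epithelial to mesenchymal transition, was at 15.74, 15.58, 15.66 and 15.16 on the H1975 PBS arrays and at 14.19, 14.04, 14.72, 14.25 and 13.95 on the Omomyc arrays. In H1299 it was at 14.72, 14.89, 14.91, 14.75 and 14.77 and then at 13.24, 13.70, 13.69, 13.53 and 13.43, and in A549 at 14.39, 13.96, 14.12 and 14.16 and then at 14.07, 14.63 and 14.73. The falls in H1975 and H1299 were of like size and left wide gaps, whereas 2 of 3 A549 Omomyc arrays were above all PBS arrays. The differences were -1.31 ± 0.19 (adjusted p = 1.52e-05), -1.29 ± 0.18 (adjusted p = 1.37e-05) and, in A549, 0.32 ± 0.21 (adjusted p = 0.804). Within the runs they were -1.63, -1.14 and -1.21 in H1975 and -1.49, -1.21 and -1.28 in H1299. HNRNPM is the called member whose promoter window holds CACGTG, printed above.

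HNRNPAB, which binds RNA and single-stranded DNA, was at 14.45, 14.47, 14.41 and 14.82 on the H1975 PBS arrays and at 13.52, 13.61, 13.77, 13.64 and 13.39 on the Omomyc arrays. In H1299 it was at 14.18, 14.05, 14.38, 14.24 and 14.46 and at 12.79, 12.89, 13.10, 12.97 and 12.74. In A549 it was at 14.67, 14.33, 14.17 and 14.34 and at 14.19, 14.46 and 13.75. The PBS arrays of all 3 lines thus lay between 14.05 and 14.82, and the Omomyc arrays were apart from them in H1975 and H1299 only. The differences were -0.95 ± 0.17 in H1975 (adjusted p = 3.36e-04), -1.36 ± 0.16 in H1299 (adjusted p = 1.66e-06) and -0.24 ± 0.20 in A549 (adjusted p = 0.876).

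HNRNPA2B1, which like HNRNPA1 is known to steer the choice between the isoforms of pyruvate kinase, fell clearly in H1299 and less firmly in H1975. It was at 13.84, 14.33, 14.51, 14.18 and 13.97 on the H1299 PBS arrays and at 12.50, 13.54, 12.91, 12.78 and 12.19 on the Omomyc arrays. In H1975 it was at 14.57, 14.65, 15.00 and 14.49 and at 14.08, 13.92, 14.22, 14.32 and 12.96, and in A549 at 14.47, 14.23, 14.51 and 14.33 and at 14.15, 14.13 and 14.33. Omomyc arrays were below all PBS arrays in H1299 and H1975, by little in H1975, where the fifth Omomyc array stood far below the others. The difference was -1.38 ± 0.24 in H1299 (adjusted p = 2.28e-04), -0.78 ± 0.25 in H1975 (adjusted p = 0.0396) and -0.18 ± 0.28 in A549 (adjusted p = 0.972). Any 1 of 7 of the 9 H1975 arrays, PBS 1 to 4 and Omomyc 1, 2 and 5, ended the H1975 call when left out (adjusted p up to 0.138). HNRNPA1 itself was at 16.34 to 16.63 on PBS arrays and 16.41 to 16.64 on Omomyc arrays of H1975, at 16.25 to 16.59 and 16.07 to 16.69 in A549, and at 17.19 to 17.59 and 16.88 to 17.33 in H1299. Its differences of 0.041 ± 0.17, 0.0087 ± 0.19 and -0.14 ± 0.16 were within the spread of the arrays.

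HNRNPR, which shares its domain structure with SYNCRIP and binds mRNA in nucleus and cytoplasm, fell in H1299. There it was at 13.74, 13.19, 13.49, 13.54 and 13.52 with PBS and at 12.17, 12.15, 12.09, 12.03 and 11.59 with Omomyc, a difference of -1.49 ± 0.19 (adjusted p = 3.30e-06) with no overlap. In H1975 it was at 13.58, 13.21, 13.50 and 12.94 and at 12.84, 12.66, 13.38, 12.80 and 12.72, where 4 of 5 Omomyc arrays were below all PBS arrays and the difference of -0.43 ± 0.20 did not pass (adjusted p = 0.191). In A549 it was at 13.66, 13.57, 13.86 and 13.45 and at 13.90, 13.60 and 13.19, with overlap. HNRNPU, the scaffold attachment factor that binds chromatin and RNA, fell in H1299 by 0.82 ± 0.21 (adjusted p = 0.0112) with no overlap, and its H1975 difference was -0.59 ± 0.23 (adjusted p = 0.0956). HNRNPL, which binds CA repeats, fell in H1299 by 1.08 ± 0.29 (adjusted p = 0.0145), a call lost without Omomyc array 1 (0.0582), with a difference of -0.015 ± 0.31 in H1975.

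HNRNPA0, which binds AU-rich elements of mRNAs, fell in H1975 by 1.06 ± 0.18 (adjusted p = 1.61e-04), with Omomyc arrays at 10.53 to 10.96 below PBS arrays at 11.34 to 12.06. In A549 its groups also lay apart, 11.34 to 11.40 against 11.68 to 11.97, but the difference of -0.48 ± 0.21 did not pass (adjusted p = 0.454), and in H1299 it was -0.18 ± 0.17. HNRNPH1, which binds runs of G, fell in H1975 by 0.81 ± 0.21 (adjusted p = 0.0103, and 0.0507 without PBS array 4). HNRNPC, which binds runs of U and is known to sort nascent transcripts by length, rose in H1975 by 0.60 ± 0.19 (adjusted p = 0.0324), with no overlap of groups. The HNRNPC call was lost when any 1 of 6 arrays was left out, PBS 1, 3 and 4 and Omomyc 1, 3 and 4. The 13 HNRNP members called in no line had differences of -0.73 to 0.63 in H1975, -0.23 to 0.26 in A549 and -0.61 to 0.26 in H1299.

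In the SNRP family, SNRPA and SNRPA1 rose in H1975. SNRPA1, a protein of the U2 particle, was at 11.37, 10.91, 10.56 and 10.75 with PBS and at 12.14, 11.95, 11.78, 11.47 and 11.53 with Omomyc, all higher, a difference of 0.87 ± 0.20 (adjusted p = 0.0033). SNRPA was at 12.33, 11.90, 12.18 and 11.07 and at 13.16, 12.42, 12.66, 12.88 and 12.33, barely apart, a difference of 0.82 ± 0.24 (adjusted p = 0.0218). The SNRPA call was lost without PBS array 4 or Omomyc array 1 (up to 0.145). Both genes were lower in H1975 than in either other line with PBS. That comparison and the rise in H1975 rest on the same H1975 PBS arrays. With Omomyc SNRPA1 stood at 11.77 in H1975, 11.64 in A549 and 12.03 in H1299. SNRPA with Omomyc ran from 12.33 to 13.16 on the arrays of H1975, from 12.88 to 13.10 in A549 and from 13.42 to 14.29 in H1299. In H1299 their differences were 0.42 ± 0.19 for SNRPA1 (adjusted p = 0.199) and 0.12 ± 0.23 for SNRPA, and in A549 they were -0.16 ± 0.23 and -0.043 ± 0.27.

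The 7 genes of the Sm ring (SNRPB, SNRPD1, SNRPD2, SNRPD3, SNRPE, SNRPF and SNRPG) had 0 calls in each line, with 6, 5 and 5 negative differences and medians of -0.35, -0.27 and -0.45 in H1975, A549 and H1299. SNRPD3 was at 14.03, 13.71, 13.40 and 14.11 and at 13.06, 13.02, 13.52, 13.71 and 13.67 in H1975, at 13.18, 13.01, 13.49 and 12.91 and at 12.93, 13.05 and 12.67 in A549, and at 12.38, 11.91, 13.23, 12.84 and 13.14 and at 13.05, 12.25, 12.92, 13.38 and 13.61 in H1299. PBS and Omomyc overlapped in all 3 lines, and the differences were -0.42 ± 0.27, -0.26 ± 0.31 and 0.34 ± 0.25. SNRPB, which encodes the SmB proteins, had the lowest SNRP difference, -0.77 ± 0.29 in H1299, which did not pass (adjusted p = 0.106, and 0.0322 with the replicate block).

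In H1299 same-numbered PBS and Omomyc arrays deviated together and also shared a run. There the fit with the replicate number as a block called 15 members, 1 higher and 14 lower, against 12.7% of all probe sets. It added HNRNPD (adjusted p = 0.0445), HNRNPH3 (0.0486), SNRPB and SRSF3 to the 11 and lost none of them. HNRNPD and HNRNPH3, named here after their values were seen, have CACGTG windows printed above, and their differences without the block were -0.59 ± 0.24 and -0.61 ± 0.26.

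**Figure D4:**
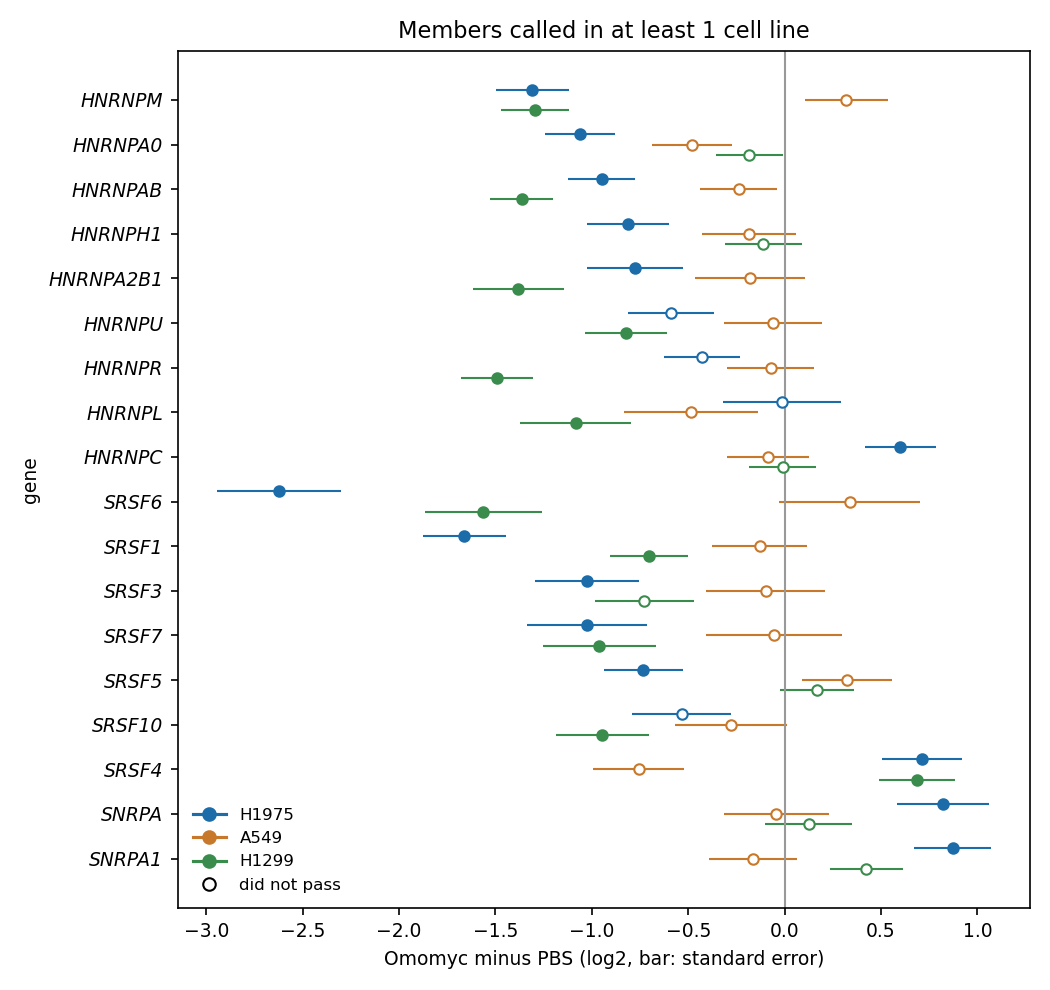
Difference Omomyc minus PBS (horizontal axis, log2, bar: standard error) in each cell line for the 18 members called in at least 1 line, 9 HNRNP, 7 SRSF and 2 SNRP. Filled points passed an adjusted p of 0.05, and the A549 points, all open, lie between -0.76 and 0.34.

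The calls of H1975 and H1299 overlapped in 7 members, which were 50% of the 14 in H1975 and 63.6% of the 11 in H1299. Over all probe sets 518 were called in both, 24.7% and 33% of the calls, or 2.93% of those tested. The 7 were HNRNPA2B1, HNRNPAB, HNRNPM, SRSF1, SRSF6 and SRSF7, all lower in both, and SRSF4, higher in both. Of all probe sets 1.12% were called lower in both. The sign of the difference was the same in H1975 and H1299 for 32 of 45 members (71.1%), and for 56.8% of all probe sets. Across the 45 members the 2 lines' differences had a Pearson's r of 0.61, with 0.85 over the 11 SRSF members, 0.43 over the 22 HNRNP and 0.59 over the 12 SNRP, against 0.24 over all probe sets. The lines share no arrays, but members of a line share its arrays and runs, so these values are descriptions. Many of all probe sets lay below background, unlike most members, and r and the same-sign share were not computed over expressed probe sets alone.

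Members with non-overlapping groups numbered 5 with Omomyc higher and 9 lower in H1975, where 10.5% of all probe sets did not overlap (5.18% higher and 5.35% lower). They numbered 1 and 2 in A549 (9.39%; 5.79% and 3.6%) and 0 and 7 in H1299 (8.01%; 3.91% and 4.09%). In A549 these were SRSF5, higher, and SRSF4 and HNRNPA0, lower, and none of these differences passed. For SRSF5 the groups all but touched, with the lowest Omomyc array at 15.6681 and the highest PBS array at 15.6675. SRSF5 and SRSF4 were opposite in sign to H1975, and HNRNPA0 was not.

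Whether a response differed between lines was tested by itself, with a moderated F test of the interaction. It called 8 members, HNRNPM, SRSF6, SRSF4, HNRNPR, SRSF1, HNRNPAB, HNRNPLL and SRSF5, against 8.17% of all probe sets, and 14 with the run as a block, against 17.4%. These were 4 of the 22 HNRNP and 4 of the 11 SRSF members, and 0 of the 12 SNRP. SRSF6, HNRNPM and SRSF4 parted A549 from both other lines. For HNRNPM the H1975 response was lower than that of A549 by 1.63 ± 0.29 (adjusted p = 6.62e-04), the H1299 response was lower by 1.62 ± 0.28 (adjusted p = 8.79e-04), and H1975 and H1299 differed by -0.013 ± 0.26. For SRSF6 the same differences were -2.96 ± 0.49 for H1975 minus A549 (adjusted p = 3.05e-04) and 1.90 ± 0.48 for A549 minus H1299 (adjusted p = 0.0269), and H1975 minus H1299, -1.06 ± 0.44, did not pass (adjusted p = 0.193). For SRSF4 they were 1.47 ± 0.31 (adjusted p = 0.0046), -1.44 ± 0.31 (adjusted p = 0.0079) and 0.026 ± 0.28.

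HNRNPR parted H1299 from the other lines, with a response 1.06 ± 0.27 lower than in H1975 (adjusted p = 0.016) and 1.42 ± 0.29 lower than in A549 (adjusted p = 0.0061). SRSF1 parted H1975 from A549 (-1.53 ± 0.33, adjusted p = 0.0046), and its difference from H1299, -0.96 ± 0.30, did not pass (adjusted p = 0.054). HNRNPAB parted A549 from H1299 (1.12 ± 0.26, adjusted p = 0.0154), and its F test was lost without A549 Omomyc array 2 (adjusted p = 0.0678). SRSF5 parted H1975 from A549 (-1.06 ± 0.31, adjusted p = 0.0467), and its F test was lost on leaving out any 1 of 14 arrays (up to 0.113): PBS 3 and 4 and Omomyc 1, 2 and 4 of H1975, PBS 1 and 2 and Omomyc 1, 2 and 3 of A549, and PBS 3 and 4 and Omomyc 1 and 3 of H1299. HNRNPLL, a relative of HNRNPL known from the splicing of CD45 in T cells, had differences of opposite sign in H1975 and H1299. Its H1975 difference did not pass (adjusted p = 0.0548) but did with the run (0.0189) or the replicate number (0.0456) as a block. Its H1299 difference did not pass in any of these fits (adjusted p = 0.147, 0.068 with the run and 0.139 with the replicate number as a block). Only 1 of 4 same-numbered pairs of H1975 correlated above 0.1, so the replicate block there may not join paired arrays. It was at 9.52 to 9.88 with PBS and 9.97 to 10.61 with Omomyc in H1975, and at 10.20 to 10.79 and 9.29 to 10.57 in H1299, with 9.96 to 10.64 and 10.10 to 10.24 in A549. Its H1975 difference of 0.63 ± 0.21 exceeded that of H1299, -0.50 ± 0.20, by 1.12 ± 0.29 (adjusted p = 0.019), and its F test was lost on leaving out any 1 of 8 arrays (up to 0.0703): PBS 1, 3 and 4 and Omomyc 2 and 4 of H1975, and PBS 3 and 4 and Omomyc 1 of H1299. With the replicate block SNRPA1 (adjusted p = 0.0347) and HNRNPA2B1 (0.0205) also differed between lines, and the 8 named remained called.

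Other genes of splicing were taken from 6 lists of 123 genes, of which 109 were measured by 110 probe sets. In H1975 3 probe sets rose and 13 fell, in A549 0 changed, and in H1299 1 rose and 10 fell, and with the run as a block the counts were 7 and 23, 0 and 2, and 4 and 20. The called shares of 14.5% in H1975 and 10% in H1299 lay near the 11.8% and 8.87% of all probe sets, and with the run as a block 27.3% and 21.8% stood beside 19.2% and 15.9%. Falls alone were 11.8% and 9.09%, beside 6.27% and 4.52%. The lists' median difference was -0.067, -0.0064 and -0.10 in H1975, A549 and H1299, and nothing particular to the lists is read from these shares. In U2 particle and branch point recognition 5 of 17 probe sets fell in H1975 and 2 in H1299. U2AF2, the large subunit of the factor that binds the end of the intron, fell by 0.77 ± 0.22 in H1975 (adjusted p = 0.0177) and by 1.06 ± 0.20 in H1299 (adjusted p = 8.13e-04), and the H1975 call was lost without PBS array 1 or Omomyc array 2 or 5. Its small subunit U2AF1, on 1 of 2 probe sets, fell by 0.93 ± 0.30 in H1975 and by 1.00 ± 0.28 in H1299, while the other probe set did not pass (-0.80 ± 0.31 and -0.89 ± 0.29). The U2AF1 calls were lost without PBS 1, 2 or 4 or Omomyc 1, 2 or 5 of H1975, and without PBS 2 or 3 or Omomyc 1 or 5 of H1299. DDX46, a helicase of branch point recognition, and SF3B4 fell in H1975 (-1.68 ± 0.26 and -0.76 ± 0.19), and SF3B1, which contacts the branch point, was not called in any line (0.30 ± 0.19, 0.062 ± 0.22 and -0.0011 ± 0.18).

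The tri-snRNP and activated spliceosome had 0 of 21 called in H1975 and 2 lower in H1299, BCAS2 (-0.85 ± 0.21) and PLRG1 (-0.67 ± 0.18), both of the complex around PRPF19. In the list of LSM, U1 and minor spliceosome genes, 1 of 15 fell in H1975 and 1 in H1299, and none was called in A549. They were LUC7L3 in H1975 (-1.11 ± 0.34) and SNRNP70, the U1 protein to which SRSF1 binds, in H1299 (-0.72 ± 0.22). Each of these 2 calls was lost on leaving out any 1 of 6 arrays, PBS 1, 2 and 3 and Omomyc 1, 2 and 5 of H1975 for LUC7L3, and PBS 1, 2 and 3 and Omomyc 1, 4 and 5 of H1299 for SNRNP70. Of 15 genes of snRNP assembly, WDR77, the partner of the Sm methylase PRMT5, fell by 1.57 ± 0.23 in H1975 (adjusted p = 1.65e-05) and by 0.92 ± 0.21 in H1299 (adjusted p = 0.0047), and GEMIN4 fell in H1299 (-0.87 ± 0.22). PRMT5 itself was not called, at 0.28 ± 0.23, 0.19 ± 0.26 and -0.35 ± 0.21 in H1975, A549 and H1299.

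Among 16 genes around the SR proteins, 2 rose and 2 fell in H1975 and 1 rose and 2 fell in H1299. TRA2A and TRA2B, SR-related activators of exons, fell in both lines, with differences of -1.30 ± 0.28 and -1.68 ± 0.25 in H1975 and of -1.25 ± 0.26 and -1.14 ± 0.24 in H1299 (adjusted p between 2.84e-05 and 0.0018), and stood at -0.041 ± 0.31 and 0.058 ± 0.29 in A549. CLK3, a kinase of SR proteins, rose in H1975 by 1.33 ± 0.21 (adjusted p = 6.47e-05). Of 26 other regulators of alternative splicing, 1 rose and 4 fell in H1975 and 1 fell in H1299. SFPQ, a paraspeckle protein, fell by 1.82 ± 0.28 in H1975 and stood at -0.013 ± 0.26 in H1299. TARDBP (TDP-43) fell in both lines (-1.25 ± 0.21 and -0.95 ± 0.19). PTBP1 was not analysed here.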

How the data were processed

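The authors deposited log2 values of 26 arrays for 24351 probe sets, made with RMA and Partek per the submitters' processing notes, without versions; no label states whether 1 normalization covered every array. Gene symbols came from the platform annotation: 17709 probe sets had 1 symbol, 0 several and 6642 none, and all 45 members matched RefSeq by Entrez ID. limma 3.58.1 in R 4.3.3 fitted 6 group means to the 17709 probe sets over all arrays (20 residual degrees of freedom), with Benjamini-Hochberg adjustment. The labels call the arrays biological replicas without naming separate cultures, so p-values measure the spread between these arrays, which may be technical; 0 pairs were identical. The number of arrays limits the precision.

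Members, gene lists, alternatives and the runs were chosen with earlier results of these data known. Members are named if called in a line, if among the 2 of a family with the smallest p for line difference or PBS level, or fixed beforehand (SRSF1, HNRNPA1, HNRNPA2B1, SNRPD3). Array values are given where a call holds in 2 lines or the lines differ, and for a few further members.

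Deviations of same-numbered PBS and Omomyc arrays correlated at 0.258 to 0.389 in the 5 pairs of H1299. In the 3 of A549 the values were 0.109 to 0.196, and every pair of both lines exceeded the threshold of 0.1. Each of these pairs also shared a run. Arrays of the same run but unlike number were not compared, so a pairing by number and a shared run were not told apart. In H1975 1 of 4 pairs exceeded 0.1 (-0.196 to 0.331), and the negative ones, replicates 2 and 4, joined arrays of different runs. The fit was tested on simulated data. Promoters are RefSeq's. Coordinates are GRCh38.p14.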

Additional observations from a re-analysis of the deposited data

Results flagged for a closer look

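Of 60 groups of arrays checked in the members with array-by-array values, 5 held an array far from the others, and chance alone flags about 1 in 20. HNRNPAB on H1975 PBS array 4 was at 14.82 against 14.41 to 14.47 on the others, a gap of 0.863 of the group's range. SRSF6 on A549 PBS array 3 was at 13.24 against 12.46 to 12.52, a gap of 0.932. HNRNPR on H1975 Omomyc array 3 was at 13.38 against 12.66 to 12.84, a gap of 0.749, and on H1299 Omomyc array 5 at 11.59 against 12.03 to 12.17, a gap of 0.748. HNRNPA1 on H1299 Omomyc array 2 was at 16.88 against 17.20 to 17.33, a gap of 0.72. H1975 PBS array 4 and A549 PBS array 3 were each the only array of their normalization run in their group. The part of the run in these gaps was not tested.

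The response to Omomyc differed between the 3 lines in 8 members by limma's F test of the interaction. The adjusted p was 0.000253 for HNRNPM, 0.00054 for SRSF6, 0.00258 for SRSF4, 0.00292 for HNRNPR, 0.0065 for SRSF1, 0.0153 for HNRNPAB, 0.0324 for HNRNPLL and 0.0378 for SRSF5.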

How the results depend on the processing

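Of the 25 calls of members, all kept their direction in each alternative that could be computed. All 25 passed with quantile normalization, the run as a block, trend and robust settings and without dim probe sets (30th percentile). HNRNPC was lost with array weights and HNRNPA2B1 in H1975 with the replicate block (adjusted p = 0.0788), which called 14 members in H1975. Median centring lost SRSF1 and SRSF4 in H1299 and SRSF5 in H1975, the line alone left 16, and an adjusted p under 0.01 left 11. Called members at 0.01 numbered 6 in H1975, 5 in H1299 and 5 for the line difference. The line alone gave 8 in H1975, and the run as a block gave 17 in H1299 and 14 for the line difference. Of the H1299 calls, run 3 alone, with 2 PBS and 2 Omomyc arrays of that line, lost only SRSF4. Single runs, in which several groups hold 1 array that is assumed to vary like the other groups, gave 4, 3 and 4 in H1975 for runs 1, 2 and 3, 0 and 5 in H1299 for runs 1 and 2, 1 and 0 for the line difference, and 12 for the PBS level in run 1.

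Leaving out 1 array gave 9 to 16 members in H1975, 0 in A549, 8 to 12 in H1299, 6 to 9 for the line difference and 22 to 24 for the PBS level. Family medians then ranged, for H1975, A549 and H1299, from -0.545 to -0.212, -0.15 to -0.0676 and -0.32 to -0.168 in HNRNP, from -0.731 to -0.462, -0.132 to 0.0595 and -0.652 to -0.405 in SRSF, and from -0.273 to 0.0992, -0.138 to 0.0355 and -0.478 to -0.18 in SNRP. The SNRP median in H1975 was 0.38 in run 2 alone, and the SRSF median in H1299 was -0.138 in run 1 alone. With promoters of 100 bases 4 members held CACGTG.

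Of all probe sets, 6.74% in H1975, 0.638% in A549, 5.01% in H1299 and 3.96% for the line difference were called at 0.01. The run as a block gave 19.2%, 2.84%, 15.9% and 17.4%. Quantile normalization gave 1.98% in A549 and 13.1% for the line difference, array weights 2.61% and the line alone 0.457% in A549. Run 1 alone gave 5.75%, 0.282%, 0.463% and 1.2%, run 2 alone 5.92%, 0.248%, 2.98% and 3.1%, and run 3 alone 4.38% in H1975. Leaving out 1 array gave 9.18% to 11.9%, 0.728% to 1.06% (0.728% without Omomyc array 1 and 0.785% without PBS array 4), 7.19% to 8.25% and 6.78% to 8.33%, and 54% to 56.6% for the PBS level. The higher share of A549 calls was 76.8%, and 64.7% with quantile normalization and 60.4% with the run as a block. Why counts moved was not tested. The replicate block lies within a line, so it gives no PBS comparison. Probe sets near background, and A549 with 3 Omomyc arrays, limit what can be read.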

Other observations

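The low HNRNPUL1 level of H1975 was set beside its neighbours on chromosome 19, a check chosen after its value was seen. Among the 10 nearest measured genes in RefSeq's order, 5 had lower PBS levels in H1975 than in H1299 and 1 was higher, CYP2S1 at 1.21. The lower ones were AXL (-3.76), TMEM91 (-3.23), CCDC97 (-3.20), TGFB1 (-3.05) and EXOSC5 (-2.66), with adjusted p from 1.06e-15 to 2.57e-08 in limma. The median of the 10 was -1.97, beside -3.70 for HNRNPUL1 and -0.017 over all probe sets. Against A549 the differences of CCDC97, EXOSC5, TMEM91 and TGFB1 were -3.18, -2.48, -2.30 and -1.80, while AXL stood at -0.0076 and CYP2S1 at -8.20 (adjusted p = 3.49e-20 in limma). Gene copy number was not measured.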
